A study of Mus musculus with 8 samples.

Results

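A set of 10 genes of the muscle Z-disc and of the LIM domain family were followed in cells sorted and labelled as muscle satellite cells (SCs), from which fibres regenerate. The table held 52636 genes, and the 10 were taken from it by symbol: Actn2, Actn3, Pdlim3, Pdlim5, Pdlim7, Ldb3, Myoz1, Tcap, Csrp3 and Fhl1. Of these, Pdlim7 and Actn3 had been selected on their FPKM in the same 8 libraries, that is, for how their levels differed between them, so their values are given as a description and without a test. The other 8 genes were read with tests, although the whole list was drawn up with earlier results of these data known.

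The Z-disc is the protein plate that bounds each sarcomere. It anchors the actin thin filaments from both sides, and alpha-actinin crosslinks them there. PDZ-LIM proteins bind alpha-actinin through a PDZ domain and carry LIM domains, zinc-binding modules that hold partner proteins. Other Z-disc proteins tie titin to the plate or bring the phosphatase calcineurin to it. Muscle fibres hold these proteins in large amounts, whereas SCs lie outside the fibre and build no sarcomeres until they differentiate and fuse.

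The cells came from skeletal muscle of male C57B/6J mice, aged 10 weeks at the start of the study. Control mice were untrained, and exercise mice ran on a treadmill for 4 weeks, with sessions of 30 min at 12 m per min on 4 days of each week. About 800 cells per library were sorted as CD45-, Sca1-, CD11b-, CD31-, CD34+ and alpha7-integrin+. Each group had 4 libraries, amplified with a kit for single cells. The study describes its replicates as separate mice, but the labels tie no library to a mouse, so a p-value here measures the spread between these libraries.

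Control libraries held 2339966 to 3013354 reads on genes and exercise libraries 1011737 to 1200221. The number of genes with reads was 5169 to 7307 per control library and 2348 to 3289 per exercise library. Mitochondrial transcripts took 2.09% to 15.3% of control reads, 7.56% to 7.85% in exercise 1 and 2, 50.2% in exercise 3 and 68.7% in exercise 4. The pairs of libraries differed in likeness. A chi-square test of counts gave 3.94 per degree of freedom for exercise 1 against exercise 2, and 84.5 to 737 for the other 11 pairs within a group. Control 4 lay between control 1 and control 3 in its share of reads for all 9 members with reads. Of the 8 members with reads in exercise libraries, exercise 3 lay between exercise 1 and exercise 4 for Actn3, Pdlim5, Ldb3, Tcap and Fhl1. It was level with 1 of them, at 0 reads, for Pdlim3 and Pdlim7 and outside them for Myoz1. In 345 genes of control 1 absent from control 3, control 4 held a median 0.281 of the control 1 share. In 658 of control 3 absent from control 1 it held 0.714. Exercise 3 held 0.299 in 139 genes of exercise 1 absent from exercise 4, and 0.677 in 142 of exercise 4 absent from exercise 1. These genes had at least 50 reads where present. Whether control 4 and exercise 3 are independent of the other libraries was not tested. Counts of called genes, and some single genes, are therefore given also with the mean of exercise 1 and 2 as 1 sample. The counts are given after dropping control 4 and exercise 3 too.

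The labelled cell type was checked against its markers. Of 20 SC markers, 7 had no read in any library, among them Pax7, the transcription factor that defines SCs, and Itga7, which encodes the integrin used in the sort. Cd34 had 2 to 42 reads per control library and 4 to 112 per exercise library. The SC markers summed to 47.4 to 125 FPKM in control libraries and 86.6 to 137 FPKM in exercise libraries. FPKM is fragments per kb of transcript and library size, a level per gene length. Des, also in the list of other Z-disc genes below, made up 40.3 of the 47.4 FPKM in control 1. It made up 92.4 of 125 FPKM in exercise 4 and 11.9 of 137 FPKM in exercise 1. A list of 25 muscle fibre markers summed to 39253 to 84196 FPKM in control libraries. In exercise libraries it summed to 20788, 22111, 22308 and 64691 FPKM. The order of exercise 4 depends on the scaling, since all genes summed to 2488142 FPKM there, to 331669 to 637095 in the other exercise libraries and to 339848 to 433216 in control libraries. As a share of that sum the fibre list took 9.43% to 19.6% in control libraries and 6.27%, 6.51%, 3.50% and 2.60% in exercise libraries 1 to 4. Myh7 and Tnnc2 had no read. Of the 20 fibre markers that passed the filter below, 7 fell, 0 rose and 13 did not pass the test, beside 26.8% called lower among all genes tested. Their median log2 fold change was -2.54, against -1.42 over all genes tested. At an unadjusted p under 0.05 in limma the count was 10, beside 2145 of all 4328 genes.

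The 12 immune markers had no read in any library. Of 12 endothelial markers 7 had no read, Pecam1 and Cdh5 among them, and the list summed to 0.631 to 2994 FPKM in control and 4.42 to 26.2 FPKM in exercise libraries. In control 2, 3 and 4 the sum was nearly all Kdr, at 2994, 1669 and 1076 FPKM. The 10 fibro-adipogenic markers summed to 3530 to 5820 and 4044 to 10033 FPKM, and the 6 tendon markers to 487 to 1019 and 243 to 1405 FPKM. The tendon factor Scx stood at 0 to 0.442 FPKM in control and 3.05 to 102 FPKM in exercise libraries. The groups overlapped for all the other tendon markers. Tnmd stood at 233 to 731 and 69.2 to 774 FPKM, and Comp at 5.58 to 42.0 and 0 to 31.3 FPKM. Of 10 smooth muscle markers 5 had no read, and the list summed to 12.1 to 618 and 87.5 to 9611 FPKM, with Smtn at 9605 FPKM in exercise 4. Schwann cell markers summed to 1.55 to 22.1 and 1.86 to 9.10 FPKM, and erythroid markers to 0 to 119 and 0 to 1.56 FPKM. The part of fibre RNA, or of RNA from these other cell types, in the results for the Z-disc genes was not tested. Fewer cells of a type and less RNA per cell cannot be told apart in these bulk libraries.

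The test across genes took those averaging 1 FPKM or more, on log2(FPKM + 1), with limma and Benjamini-Hochberg adjustment, and fold changes are on that scale, exercise minus control. Of the 10 members, 9 passed, Csrp3 having no read in any library. The fold change was negative in the 7 of these that were not picked, in both picked genes, and in 2954 of all 4328 genes tested. Of the 7 tested members that were not picked, Pdlim3, Myoz1 and Tcap fell, 0 rose and 4 did not pass the test. Over all 4328 genes tested, 35.6% were called, 26.8% lower (1161 genes) and 8.78% higher (380 genes). Under quantile normalization the split over all genes became 375 lower and 566 higher, and 1 member, Myoz1, was called. The median fold change of the 7 members was -2.63, beside -1.42 over all genes tested. Every exercise value lay below every control value in Pdlim3 and Myoz1, and in 24% of all genes tested. In Pdlim7, which was picked, it did so too.

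**Figure D1:**
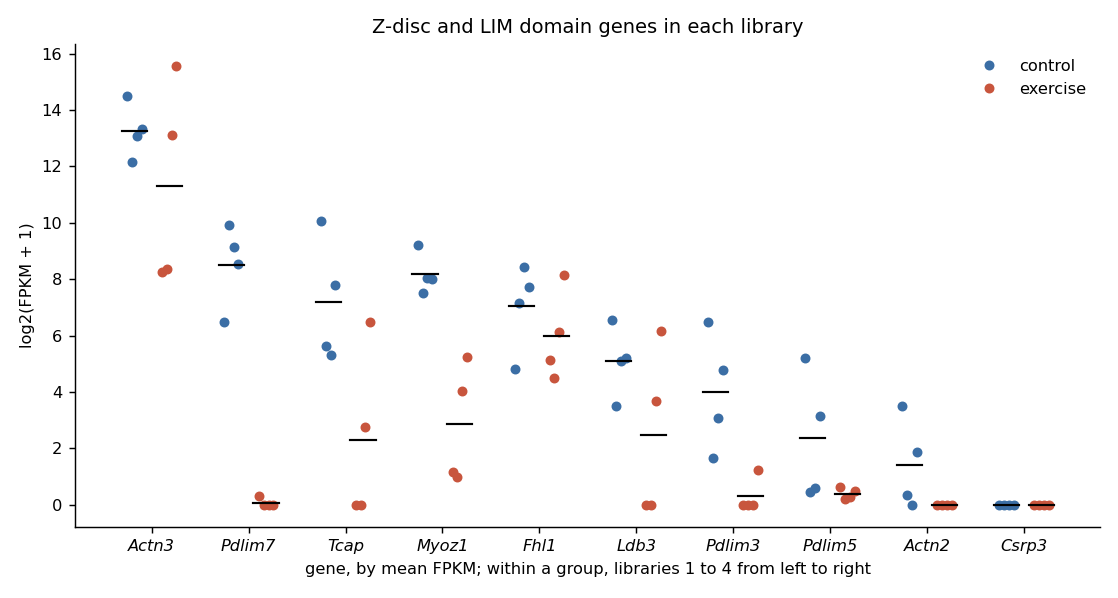
Level of the 10 genes in each library, as log2(FPKM + 1) on the vertical axis, with genes ordered by mean FPKM, control libraries in blue, exercise libraries in red and bars at the group means. The exercise points of Pdlim7, Pdlim3 and Myoz1 lie below all their control points, those of Actn3 and Fhl1 overlap the control points, and Csrp3 is at 0 throughout.

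The sequence before the start of 3 members is shown because their values differed in kind: Pdlim3 fell, Actn2 had no read in any exercise library, and Ldb3 overlapped between groups. Each stretch comes from the 250 bases before the RefSeq gene start (GRCm38.p6), without bases that lie in an annotated exon. It is written 5′ to 3′ on the strand of the gene. The stretch for Pdlim3 is chr8:45885237-45885460 on the plus strand. Those for Actn2 and Ldb3 are chr13:12340761-12340982 and chr14:34588683-34588931, both on the minus strand. Capitals mark matches, on either strand, to the E-box CANNTG of bHLH factors, myogenic or other. They also mark the MCAT motif CATTCC and the CArG box bound by serum response factor.
Pdlim3: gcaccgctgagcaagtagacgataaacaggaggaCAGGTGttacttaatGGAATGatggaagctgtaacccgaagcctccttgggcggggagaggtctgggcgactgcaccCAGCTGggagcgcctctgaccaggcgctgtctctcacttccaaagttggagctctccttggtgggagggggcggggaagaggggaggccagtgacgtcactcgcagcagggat
Actn2: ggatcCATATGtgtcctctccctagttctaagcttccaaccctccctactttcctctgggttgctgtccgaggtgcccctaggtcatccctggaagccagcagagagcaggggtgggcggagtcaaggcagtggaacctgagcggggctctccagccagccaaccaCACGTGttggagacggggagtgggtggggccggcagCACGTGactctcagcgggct
Ldb3: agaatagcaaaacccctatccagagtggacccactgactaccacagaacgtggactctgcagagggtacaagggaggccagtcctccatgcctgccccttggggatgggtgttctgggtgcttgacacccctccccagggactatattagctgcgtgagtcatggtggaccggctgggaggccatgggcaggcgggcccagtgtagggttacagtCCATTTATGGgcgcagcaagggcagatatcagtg
In Pdlim3 the E-boxes lie 216 to 211 and 139 to 134 bases before the start and the MCAT match, on the opposite strand, 201 to 196. A further MCAT match 11 to 6 bases before the start lies outside the stretch shown. In Actn2 the E-boxes lie at 245 to 240, 84 to 79 and 48 to 43, and in Ldb3 the CArG box lies at 35 to 26. Among all 32851 windows of 250 bases, 66.2% held an E-box, 12.6% an MCAT motif, 1.47% a CArG box and 2.92% a MEF2 motif. A window was found for 7 members, 11 windows in all. An E-box was found in 7 of these windows, a CArG box in 3, an MCAT motif in 1 and a MEF2 motif in 0. The 2 CArG windows of Ldb3 overlap and hold the same match. These matches say only that the letters are present.

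Actn3 and Actn2 encode the alpha-actinins of skeletal muscle, the first in fast glycolytic fibres and the second in all fibre types. Actn3 (chr19:4861223-4877909, minus strand, GRCm38) was the fifth most abundant gene of the table by mean FPKM. It stood at 23094, 4541, 8549 and 10177 FPKM in control libraries 1 to 4. In exercise libraries 1 to 4 it stood at 301, 329, 8825 and 48303 FPKM. Exercise 1 and 2 were far below every control library, exercise 3 lay inside the control range, and exercise 4 was above all of them, so the groups overlapped. The mean was 11590 ± 8027 FPKM (SD, n = 4) in control and 14440 ± 22930 FPKM in exercise libraries, and thus higher in exercise, while the log2 fold change was -1.94 (SE 1.50). Leaving out exercise 4 gave -3.35, and leaving out exercise 1 gave -0.91.

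As a share of reads, Actn3 took 6.55%, 1.51%, 3.20% and 4.21% in control libraries. The share was 0.138% (95% Wilson interval 0.131% to 0.145%) in exercise 1 and 0.150% (0.143% to 0.158%) in exercise 2. In exercise 3 it was 2.36% and in exercise 4 3.49%, between control 3 and control 4. These are shares of all reads. Mitochondrial transcripts took 50.2% of them in exercise 3, 68.7% in exercise 4 and at most 15.3% in control libraries. These intervals hold for counting error alone, because the reads were amplified. Actn3 made up 77.1% to 99.0% of the summed FPKM of the 10 genes in every library, so the sum of the list followed Actn3.

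Actn2 (chr13:12269426-12340760, minus strand) had 90, 3, 0 and 40 reads in control libraries and none in any exercise library. These reads correspond to 10.3, 0.258, 0 and 2.65 FPKM. The control libraries with reads were thus mainly control 1 and control 4. Taking 3 reads per exercise library as the upper limit, the exercise mean was lower by at least 2.99-fold. Without control 1 no such bound remained, the ratio to the limit being 0.875. The log2 fold change was -1.43 (SE 0.73) and was not called (limma adjusted p = 0.138, exact permutation p = 0.143, two-sided). In exercise 4 a level of 2.74 FPKM corresponds to 3 reads, against 2.65 FPKM in control 4. Of windows of 50 bases, 2 were shared by Actn2 and Actn3, so few reads could be split between them.

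Pdlim7, Pdlim3, Pdlim5 and Ldb3 encode PDZ-LIM proteins that bind alpha-actinin. Pdlim7 (chr13:55495795-55513676, minus strand), known as Enigma, stood at 88.1, 963, 565 and 373 FPKM in control libraries, from 980, 14298, 10687 and 7204 reads. In exercise 1 it stood at 0.247 FPKM from 2 reads, and it had 0 reads in exercise 2, 3 and 4. The lowest control library, control 1, was far above the highest exercise library. With no read, the share may still have reached 0.000297% in exercise 2 and 0.00026% in exercise 4 (3 reads), where the control libraries held 0.0419%, 0.537%, 0.355% and 0.258%. The means were 497 ± 367 FPKM and 0.0617 ± 0.123 FPKM (SD, n = 4), and the log2 fold change was -8.44 (SE 0.83). Over the pooled reads, 33169 against 2, the ratio of the levels was 5841 with each library's depth scaled as in the deposited FPKM, with a 95% counting interval from 1617 to 48234. This describes a gene picked for its pattern and rests on the 2 reads of exercise 1, without which there is no ratio. Over the alternatives the log2 fold change ran from -11.39 to -7.86.

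Pdlim7 shares 19 windows of 50 bases with the microRNA gene Mir6945, which lies inside it and had no read. It had no read in exercise 4, where the fibre markers had their highest FPKM and their lowest share of the summed FPKM among exercise libraries.

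Pdlim3 (chr8:45885461-45919548, plus strand), the actinin-associated LIM protein, stood at 88.0, 2.16, 7.52 and 26.4 FPKM in control libraries, from 1039, 34, 151 and 541 reads. It had 0 reads in exercise 1, 2 and 3 and 2 reads in exercise 4, which is 1.35 FPKM. The groups did not overlap, but control 2 and exercise 4 were close, since 3 reads in exercise 4 would be 2.02 FPKM. The means were 31.0 ± 39.4 and 0.337 ± 0.674 FPKM (SD, n = 4). Pdlim3 fell by 3.69 on the log2 scale (SE 1.01, limma adjusted p = 0.0255, exact two-sided permutation p = 0.0286, the smallest that 4 against 4 allow). The pooled ratio on the same scaled depths, from 1765 against 2 reads, was 311 (95% counting interval 85.9 to 2569). The ratio of the means, 92.0, became 35.7 without control 1, which held 1039 of those reads, and without exercise 4 there is no ratio. The call was kept when any 1 of control 1, 2 and 3 or exercise 4 was left out. It was lost without control 4 or without exercise 1, 2 or 3, with adjusted p from 0.0123 to 0.0777 over the 8 fits, and with exercise 1 and 2 averaged (exact permutation p = 0.171).

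Ldb3 (chr14:34526699-34588681, minus strand), also called Cypher or ZASP, stood at 93.5, 10.3, 33.3 and 36.2 FPKM in control libraries. It had no read in exercise 1 and 2 and stood at 11.7 FPKM in exercise 3 and 71.5 FPKM in exercise 4. On the deposited scaling exercise 4 was above 3 of the control libraries. As a share of all reads, mitochondrial reads included, it was above 1 of them, with 0.0107% against 0.0551%, 0.00713%, 0.0260% and 0.0311%. The means were 43.3 ± 35.4 and 20.8 ± 34.3 FPKM (SD, n = 4), a ratio of 2.08 that became 1.28 without control 1 and 11.1 without exercise 4. The log2 fold change of -2.63 (SE 1.41) was not called (limma adjusted p = 0.148, exact permutation p = 0.457, two-sided). Without exercise 4 it was -3.87 and was called (limma adjusted p = 0.0332). With array quality weights it was -4.81 and was called (limma adjusted p = 0.000389). With each library scaled to a constant sum of FPKM it was -3.61 and was called as well (limma adjusted p = 0.0377, exact permutation p = 0.0571). With that sum taken outside mitochondrial transcripts it was -2.78 and was not called (limma adjusted p = 0.118, exact permutation p = 0.171).

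Pdlim5 (chr3:142239590-142395696, minus strand), the Enigma homolog, stood at 36.3, 0.368, 0.519 and 7.86 FPKM in control libraries and at 0.539, 0.141, 0.203 and 0.391 FPKM in exercise libraries. Control 1 and control 4 were high, while control 2 and 3 were within the range of the exercise libraries. The means were 11.3 ± 17.1 and 0.319 ± 0.181 FPKM (SD, n = 4), a ratio of 35.4 that became 9.15 without control 1. The log2 fold change was -1.97 (SE 1.02) and was not called (limma adjusted p = 0.139, exact permutation p = 0.143, two-sided).

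Myoz1 and Tcap encode Z-disc proteins that are not LIM proteins. Myoz1 (chr14:20649107-20656540, minus strand) encodes calsarcin-2, which binds alpha-actinin and calcineurin in fast fibres. It stood at 590, 181, 265 and 256 FPKM in control libraries and at 1.26, 0.994, 15.3 and 36.7 FPKM in exercise libraries. All exercise libraries were below all control libraries. The reads behind the exercise values were few, 4, 3, 32 and 20, against 1048 to 2561 in control libraries. The means were 323 ± 182 and 13.5 ± 16.8 FPKM (SD, n = 4), 23.9-fold lower in exercise and 55.4-fold lower without exercise 4. Myoz1 fell by 5.34 on the log2 scale (SE 1.04, limma adjusted p = 0.00666, exact two-sided permutation p = 0.0286). The call was kept in each of the 8 fits that left out 1 library (adjusted p 0.00168 to 0.0251) and with exercise 1 and 2 averaged, where the exact permutation p became 0.0571. It was lost only when control 4 and exercise 3 were also left out, with a log2 fold change of -5.09 (limma adjusted p = 0.349).

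Tcap (chr11:98383811-98384953, plus strand) encodes telethonin, which caps the end of titin at the Z-disc. It stood at 1068, 48.9, 38.9 and 221 FPKM in control libraries, and at 0, 0, 5.71 and 87.8 FPKM in exercise libraries. On the deposited scaling exercise 4 was above control 2 and control 3, on 24 reads, so the groups overlapped. As a share of all reads they did not, with 0.00208% in exercise 4 and 0.00478% in control 3, the lowest control library. Mitochondrial transcripts took 68.7% of all reads in exercise 4 and 15.3% in control 3, which lowers the share left to other genes. The means were 344 ± 490 and 23.4 ± 43.1 FPKM (SD, n = 4), a ratio of 14.7 that became 4.41 without control 1 and 181 without exercise 4. Tcap fell by 4.90 on the log2 scale (SE 1.59, limma adjusted p = 0.0398), while the exact two-sided permutation p was 0.171 on the FPKM and 0.0286 on FPKM scaled to a constant sum. With that sum taken outside mitochondrial transcripts the exact permutation p was 0.0857. The call was kept in 1 of the 8 fits that left out a library, without exercise 4 (adjusted p = 0.00900), and was lost without any other library, up to adjusted p = 0.101 without control 4. It was also lost with voom on the recovered reads (adjusted p = 0.0663).

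Csrp3 and Fhl1 encode LIM-only proteins. Csrp3 (chr7:48830398-48848033, minus strand), the muscle LIM protein, known from heart and slow fibres, had no read in any of the 8 libraries. In the shallowest library, exercise 2, this leaves room for a share of 0.000297% at most. Fhl1 (chrX:56731787-56793346, plus strand), built almost wholly of LIM domains, stood at 27.0, 142, 347 and 212 FPKM in control libraries and at 33.8, 21.8, 69.7 and 279 FPKM in exercise libraries. Control 1 was below exercise 1, and on the deposited scaling exercise 4 was above 3 control libraries. As a share of all reads, mitochondrial reads included, exercise 4, with 0.0259%, was above control 1 alone, with 0.00983%. The means were 182 ± 134 and 101 ± 121 FPKM (SD, n = 4), a ratio of 1.80 that became 4.35 without exercise 4. The log2 fold change of -1.06 (SE 1.04) was not called (limma adjusted p = 0.406, exact permutation p = 0.371, two-sided). With array quality weights Fhl1 was called (limma adjusted p = 0.000447).

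**Figure D2:**
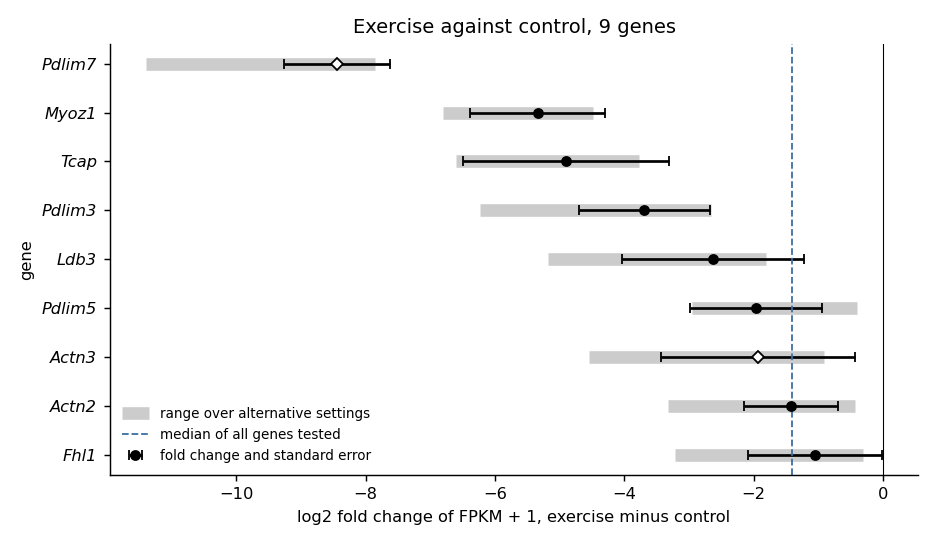
Log2 fold change of FPKM + 1 (exercise minus control) of the 9 genes with reads, with bars of 1 standard error, open diamonds for Pdlim7 and Actn3, which were picked for their pattern, and filled circles for the rest. Grey bands span the alternative settings, all below 0, and the dashed line is the median of all genes tested, -1.42, near which Actn2, Fhl1, Actn3 and Pdlim5 lie.

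Set against the median of all genes, -1.42, the members differed in where they stood. The difference from it, on the log2 scale, was -7.03 for Pdlim7, -3.92 for Myoz1, -3.48 for Tcap, -2.28 for Pdlim3 and -1.22 for Ldb3. It was -0.55 for Pdlim5, -0.52 for Actn3, -0.01 for Actn2 and 0.36 for Fhl1. Under the other scalings the fold changes of Fhl1, Actn2 and Pdlim5 changed sides of the median, and those of the other 6 stayed below it.

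The members also varied within the control group, and not in 1 order. Control 1 held the largest share of reads of Actn2, Actn3, Pdlim3, Pdlim5, Ldb3, Myoz1 and Tcap and the smallest of Pdlim7 and Fhl1. The ratio of the FPKM in control 1 to that in control 2 was 98.8 for Pdlim5, 40.8 for Pdlim3, 40.0 for Actn2, 21.8 for Tcap, 9.06 for Ldb3, 5.09 for Actn3 and 3.26 for Myoz1. It was 0.191 for Fhl1 and 0.0915 for Pdlim7. Within the exercise group, Actn2, Pdlim3, Ldb3 and Tcap had no read in exercise 1 and 2. Of the members, 8 had a read in every control library and 4 in every exercise library, Actn3, Pdlim5, Myoz1 and Fhl1.

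The members were also set against the summed fibre markers of their own library, a ratio that a single scaling factor per library cannot change. This was chosen after seeing the data. Per 1000 FPKM of the fibre list, Myoz1 stood at 7.01, 4.43, 6.76 and 5.98 FPKM in control libraries and at 0.0608, 0.0449, 0.684 and 0.567 FPKM in exercise libraries (exact two-sided permutation p = 0.0286). The spread of Myoz1 between control libraries was small on this scale, 6.04 ± 1.16 (SD, n = 4), and its groups stayed apart. Pdlim3 ran from 0.0528 to 1.05 in control and from 0 to 0.0208 in exercise libraries (exact permutation p = 0.0286). Tcap ran from 0.991 to 12.7 and from 0 to 1.36 (exact permutation p = 0.0857), and its groups overlapped. The groups also overlapped for Ldb3, at 0.253 to 1.11 and 0 to 1.11 (exact permutation p = 0.343), and for Fhl1, at 0.321 to 8.83 and 0.985 to 4.32 (exact permutation p = 0.429). Pdlim5 and Actn2 overlapped as well (exact permutation p = 0.200 and 0.143). Pdlim7, given without a test, ran from 1.05 to 23.6 in control and from 0 to 0.0119 in exercise libraries. Actn3 stood at 111 to 274 in control libraries, at 14.5 and 14.9 in exercise 1 and 2 and at 396 and 747 in exercise 3 and 4. It was thus below the control range in the first pair of exercise libraries and above it in the second.

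**Figure D3:**
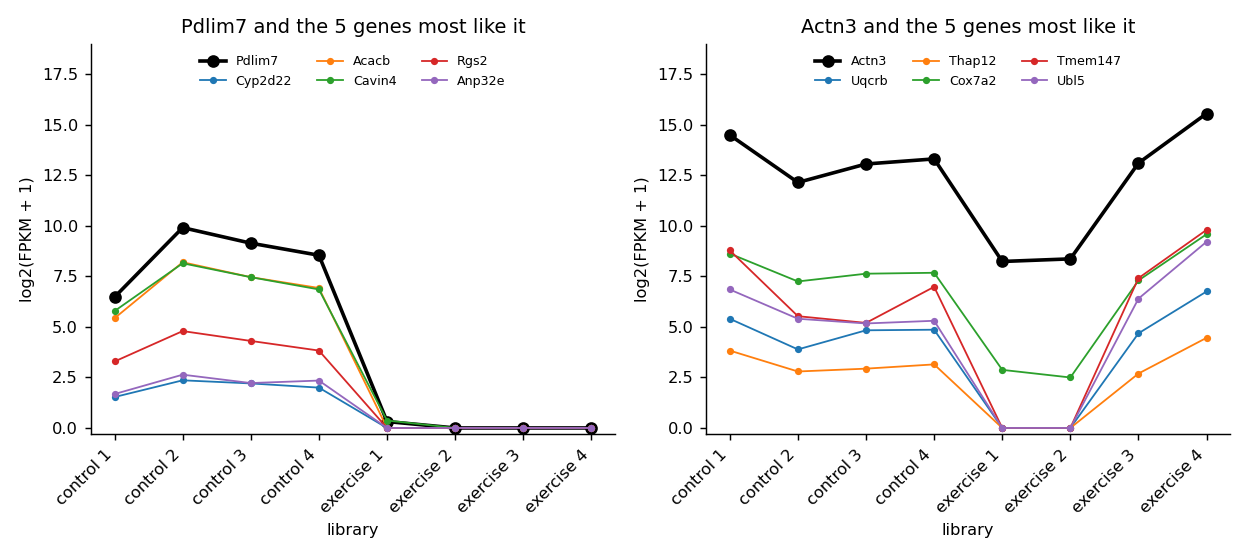
Log2(FPKM + 1) in each of the 8 libraries for Pdlim7 (left, black) and Actn3 (right, black) with the 5 genes whose levels follow each most closely. Lines only join the points of a gene. The genes on the left are near 0 in all exercise libraries, and those on the right, Actn3 included, are lower in exercise 1 and 2 than in any other library.

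Over the 8 libraries, the genes tested whose log2(FPKM + 1) followed Pdlim7 most closely were Cyp2d22, Acacb, Cavin4, Rgs2 and Anp32e, with Pearson's r of 0.9977 to 0.9996. Acacb, a muscle acetyl-CoA carboxylase, stood at 42.1 to 293 FPKM in control libraries and at 0 in every exercise library. Cavin4, a caveolar protein of muscle, had 1 read in exercise 1 and none in exercise 2, 3 and 4, as against 2 reads of Pdlim7. The genes most like Actn3 were Uqcrb, Thap12, Cox7a2, Tmem147 and Ubl5, with r of 0.983 to 0.995. Uqcrb and Cox7a2 encode subunits of the respiratory chain. Cox7a2 stood at 151 to 394 FPKM in control libraries, at 6.34 and 4.65 in exercise 1 and 2, and at 157 and 768 in exercise 3 and 4. All genes of a library share its depth and scaling, and the near-identical exercise 1 and 2 count as separate points here.

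Other genes of the Z-disc were taken from a list of 39, of which 8 had no read and 27 passed the filter. Of the 27, 9 fell, 0 rose and 18 did not pass the test, beside 26.8% called lower among all genes tested. At an unadjusted p under 0.05 in limma the count was 12 of 27, beside 2145 of 4328 over all genes. Their median log2 fold change was -1.64. Synpo2, which encodes the actin-binding myopodin, stood at 191 to 281 FPKM in control libraries and at 0.182 to 3.43 FPKM in exercise libraries. It fell by 7.03 on the log2 scale (SE 0.69, limma adjusted p = 0.000448). Cavin4 stood at 54.1 to 283 FPKM in control libraries and at 0 to 0.291 FPKM in exercise libraries, and fell by 6.97 (SE 0.71, limma adjusted p = 0.00046). Smpx, the small muscle protein of the costamere, stood at 62.2 to 225 and at 0 to 3.05 FPKM and fell by 6.01 (SE 0.75, limma adjusted p = 0.000898). These 3 genes were high in every control library, unlike Pdlim3, Pdlim5 and Actn2.

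The other 6 Z-disc genes that fell were Mypn, Xirp2, Cmya5 and the actin capping subunits Capza1, Capza2 and Capzb. Mypn had no read in control 1, so its groups overlapped. Mypn and Capza1 had no read in any exercise library and passed the filter through control libraries alone. The other 2 of the 3 most abundant genes of the list, beside Synpo2, were not called. Cryab, the small heat shock protein alpha-B-crystallin that binds desmin, stood at 348 ± 84.9 FPKM in control and 571 ± 119 FPKM in exercise libraries (SD, n = 4; log2 fold change 0.72, SE 0.51, limma adjusted p = 0.253). Myot, which encodes myotilin, stood at 118 ± 99.2 and 134 ± 171 FPKM (log2 fold change -0.34, limma adjusted p = 0.780). Hspb1 lay higher in every exercise library than in any control library and was not called (limma adjusted p = 0.221), and so lay 7.62% of all genes tested.

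Other LIM, PDZ-LIM and alpha-actinin genes were taken from a list of 49, of which 21 had no read and 14 passed the filter. Of the 14, 4 fell, 0 rose and 10 did not pass the test, beside 26.8% called lower among all genes tested. The median log2 fold change was -1.68. At an unadjusted p under 0.05 in limma the count was 10 of 14, beside 2145 of 4328 over all genes. These 4 calls depended on the libraries and settings. In limma 0 were called without control 4, without exercise 1, 2 or 3, with exercise 1 and 2 averaged, or with no filter. At an unadjusted p under 0.05 in limma, no filter gave 16, beside 3286 of 9029 genes tested. Each of these other settings gave 5, beside 1651 of 4262 (without control 4) to 1891 of 4395 (without exercise 2) over all genes. Crip1, a small LIM protein, stood at 127 to 260 FPKM in control libraries and at 1.52 to 35.7 FPKM in exercise libraries, and fell by 3.23 (SE 0.94, limma adjusted p = 0.0313). Lims1, which encodes the integrin-linked adaptor PINCH, stood at 1.74 to 194 FPKM in control libraries and had no read in any exercise library. It fell by 4.13 (SE 1.29, limma adjusted p = 0.0367) and was at least 71.7-fold lower in exercise against 3 reads per library, or at least 20.2-fold without control 1. The PDZ-LIM genes Pdlim1 and Pdlim4 fell as well, both with no read in control 1 and in all exercise libraries (limma adjusted p = 0.0382 and 0.0385). Like Lims1, they passed the filter through control libraries alone. With at least 1 FPKM in 4 libraries as the filter, 2 genes of the list were called. Mical2, with 192 and 45.5 FPKM in control 1 and 4 and no read in the other libraries, was not called (limma adjusted p = 0.126). Trip6 and Csrp2 had positive fold changes, 3.39 and 1.54, and were not called (limma adjusted p = 0.0565 and 0.0571).

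**Figure D4:**
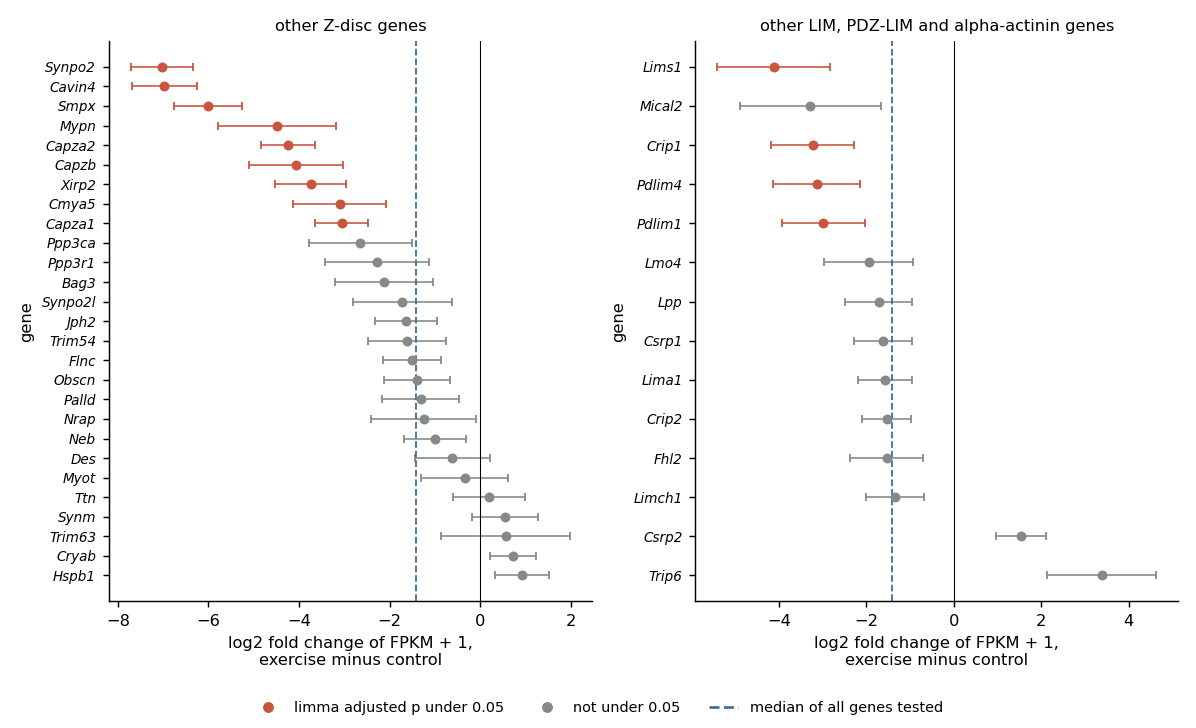
Log2 fold change of FPKM + 1 (exercise minus control) with 1 standard error for 27 other Z-disc genes (left) and 14 other LIM, PDZ-LIM and alpha-actinin genes (right), red where the limma adjusted p was under 0.05 and grey otherwise. All red points lie below 0, led by Synpo2, Cavin4 and Smpx on the left and Lims1 on the right, and the dashed line is the median of all genes tested.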

How the data were processed

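RNA of cells sorted and labelled as SCs, in 4 control and 4 exercise libraries, was analysed, with groups taken from the labels. The authors deposited FPKM values per gene, and per the labels used Bowtie 0.12.9, Cufflinks 2.1.1, HTSeq and mm10. Multiplied by gene length, 100% of the deposited FPKM values were whole multiples of 1 step per library (tolerance 0.001), so reads were recovered. The deposited FPKM already carried a median-of-ratios size factor. Annotation and positions are from GENCODE M21 on GRCm38, which held 99.6% of the identifiers, and the annotation release the authors used is not given in the sources used here. Rows that share a symbol were summed, 101 fewer.

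The members and lists were chosen with earlier results of these data known. For genes averaging 1 FPKM or more, log2(FPKM + 1) was fitted with limma 3.58.1 under R 4.3.3 (trended eBayes, Benjamini-Hochberg adjustment over 4328 genes, threshold 0.05). Single genes were compared on FPKM by exact permutation tests (two-sided), which 4 against 4 limit to p of at least 0.0286. A count of 0 was taken to allow 3 reads, and intervals are at 95%. Python 3.11.15 and scipy 1.17.1 were used. In simulated data with a set SD of 0.5, the fit recovered 200 of 200 genes changed by 3 on the log2 scale. The noise was independent and normal, so this checked the code and not how the fit suits these libraries. Named beside the members were the 5 genes most like Pdlim7 and Actn3 by Pearson's r, and in each related list the 3 largest called rises and falls without overlap and the 3 highest means. Other genes were named after their values were seen.

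Alternatives were a pseudocount of 0.1, no filter, at least 1 FPKM in 4 libraries, other scalings, equal depth, no variance trend, array quality weights, the highest row per symbol, the replicate number as a block, voom on recovered reads (1242 genes called), exercise 1 and 2 averaged, control 4 and exercise 3 also left out, and leaving out each library. Motifs were searched on both strands of RefSeq windows. Windows of Actn3, Myoz1 and Tcap were not analysed here.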

Additional observations from a re-analysis of the deposited data

Results flagged for a closer look

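Of 13 groups of 4 libraries of the members not picked, 1 held a library apart from the other 3 by Dixon's ratio. Pdlim3 in exercise 4 had a log2(FPKM + 1) of 1.23, from 2 reads, against 0 in the other exercise libraries. With 3 values at 0 any read gives the highest possible ratio, so the usual chance rate of about 1 in 20 groups does not apply and the value is given as a description.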

How the results depend on the processing

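The 7 tested members that were not picked kept a negative fold change under every alternative that gave a value, and none reversed. So did Pdlim7 and Actn3, which were picked for their pattern. Over all genes 2954 of 4328 were negative in the main fit, and the median ran from -2.59 to -0.32 over the alternatives. Counts of called genes are given for all genes (1541), the members not picked (3), other Z-disc genes (9) and other LIM genes (4), in that order. They were 2978, 5, 23 and 11 with array quality weights. With exercise 1 and 2 averaged, all genes gave 596, the members 1, the Z-disc genes 7 and the LIM genes 0. At an unadjusted p under 0.05 in limma the LIM genes then gave 5, beside 1887 of 4397 genes tested. With control 4 and exercise 3 also left out every count was 0 in limma (469, 1, 5 and 1 at an unadjusted p under 0.05), over 3 control and 2 exercise values. No filter gave 840, 1 and 0 for all genes, members and LIM genes (16 LIM genes at an unadjusted p under 0.05 in limma, beside 3286 of 9029 genes tested), and quantile normalization gave 941, 1 and 1. Myoz1 was the 1 member called with exercise 1 and 2 averaged, with no filter and with quantile normalization. A constant sum gave 15 Z-disc genes, a pseudocount of 0.1 gave 8 LIM genes, and at least 1 FPKM in 4 libraries gave 2 LIM genes. Leaving out 1 library gave 527 (without exercise 3) to 1899 (without control 1) for all genes, 1 to 4 members, 6 to 13 Z-disc genes and 0 to 7 LIM genes, the 0 without control 4 or exercise 1, 2 or 3. The members with an exact p under 0.05, 2 of them, were 0 with exercise 1 and 2 averaged and 0 to 3 over the fits without 1 library. The cause of these changes was not tested. With the replicate number as a block, 1059 genes and 3 members were called. A pairing by number was not settled. Correlations of same-numbered deviations were -0.02 to 0.04, though 3 of the 4 control libraries correlated best with the exercise library of their own number. Actn2 and Pdlim5 gave no value with at least 1 FPKM in 4 libraries, nor did Actn2 without control 1. Low depth in the exercise libraries limits the members near 0. There 1 read per kb is 0.598 FPKM in exercise 1 and 3.47 FPKM in exercise 4. This range follows the scaling of the deposited FPKM and not depth, as exercise 4 held 1155592 reads and exercise 1 1058317.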
